A study of Mus musculus with 8 samples.

Results

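Followed here are 10 genes that control how fast cytokine mRNAs are destroyed, in group 3 innate lymphoid cells (ILC3s): the tristetraprolin (TTP) family Zfp36, Zfp36l1 and Zfp36l2, the Regnase family Zc3h12a, Zc3h12c and Zc3h12d, the Roquin pair Rc3h1 and Rc3h2, and the single genes Arid5a and Btg2. The 10 were chosen by name, as rows of a table of 27179 genes, and 9 of them passed the expression filter and were tested among 8878 genes. ILC3s are tissue-resident lymphocytes that secrete interleukin 22, and these cells were sorted from the large intestine of C57BL/6 mice at steady state by their CCR6 and CD127 and by the absence of T, B, NK and myeloid surface markers. The 4 Zbtb46-sufficient mice (replicates 1 to 4) carried Zbtb46f/f alleles without Cre, and the wild type label refers to them. The 4 Zbtb46-deficient mice (replicates 5 to 8) carried the same floxed alleles together with Cre, which the first group lacked. Each library came from 1 mouse, and the sources used here give no ages for the mice. The comparison asks which transcripts differ when Zbtb46, a zinc finger transcription factor, is missing.

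Cytokine mRNAs are short-lived because their 3′ untranslated regions carry binding sites for proteins that recruit the decay machinery. TTP and its relatives bind AU-rich elements through paired CCCH zinc fingers and bring in the CCR4-NOT deadenylase, which removes the poly(A) tail. Regnase-1, encoded by Zc3h12a, is itself an endonuclease that cuts stem-loops, often on translating mRNAs, and the Roquins bind related stem-loops and recruit deadenylases. Arid5a opposes Regnase-1 on some transcripts, Il6 among them, and Btg2 is an antiproliferative adaptor that stimulates deadenylation.

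Depth ran from 25328231 to 33760743 counts a library, with 10668 to 14410 genes detected. Zbtb46 itself was at 8.02, 48.8, 88.9 and 26.6 CPM (read counts scaled to library size) in the sufficient libraries and at 4.82, 0.532, 3.19 and 0.125 CPM in the deficient ones, without overlap. All 14 ILC3 identity genes followed (among them Il23r, Kit and Il7r) were detected in all 8 libraries, the lowest value being 5.93 CPM of Ahr. Of the marker lists of other cells, epithelial genes summed to 1.66 to 1375 CPM in sufficient and 0.813 to 28.7 CPM in deficient libraries, highest in replicate 2. Stromal and endothelial genes summed to 77.9 to 1194 and 74.0 to 511 CPM, highest in replicates 1 and 7. Macrophage and neutrophil genes summed to 1.24 to 89.1 and 4.47 to 789 CPM, dendritic cell genes to 550 to 788 and 461 to 1176 CPM, T cell genes to 85.2 to 249.7 and 63.7 to 226 CPM, and NK cell and ILC1 genes to 49.8 to 248 and 189 to 634 CPM. The dendritic cell list includes Zbtb46 itself, and its Flt3, Itgax, Clec9a and Cd209a were at or under 1 CPM in both groups. ILC2 genes summed to at most 52.0 and 28.2 CPM, B and plasma cell genes to 136 and 94.9 CPM, and mast cell genes to 3.23 and 66.2 CPM. In sufficient and deficient libraries respectively, the genes over 1 CPM in at least 1 library were 9 and 3 of 11 epithelial, 8 and 8 of 10 stromal and endothelial, 5 and 10 of 11 macrophage and neutrophil, 5 and 5 of 9 dendritic cell, 5 and 5 of 9 T cell and 5 and 7 of 9 NK cell and ILC1 genes. The same counts were 2 and 3 of 6 ILC2, 3 and 4 of 7 B and plasma cell and 1 and 1 of 6 mast cell genes. Among the markers that stayed low, Cdh1 and Vil1 (epithelium), Cdh5 (endothelium), Mrc1 (macrophages), Flt3 and Itgax (dendritic cells), Cd3e and Cd8a (T cells), Eomes (NK cells) and Il13 (ILC2s) were at or under 1 CPM in every library. Other members of these lists were higher. Dcn reached 687 CPM in replicate 1, and Lgals4, Cd4 and Klrg1 reached 388, 106 and 36.7 CPM in replicate 2. Ncr1 reached 447 CPM in replicate 5, S100a9 359 CPM in replicate 7, and Pecam1 and Irf8 45.4 and 25.7 CPM in replicate 8. Replicates 1 and 6 stood apart from the rest, with median Spearman correlations to the other libraries of 0.693 and 0.679 over tested genes against 0.729 to 0.758 for the remaining 6. The part of other cells in the results below was not tested.

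None of the 9 tested regulators passed the threshold of an adjusted p under 0.05 in edgeR's quasi-likelihood test, where 0% of all tested genes did. Zbtb46 itself did not pass either, with a log2 fold of -4.31 (standard error 1.42), an unadjusted p of 0.0124 and an adjusted p of 0.885. DESeq2 called Zbtb46 at an adjusted p of 0.0115. Across all genes 178 were lower (2.00%) and 186 higher (2.10%) at an unadjusted p under 0.05 in edgeR, DESeq2 called 134 lower (1.17%) and 240 higher (2.09%) at its adjusted threshold, and limma-voom called 0. No regulator was among them in edgeR at either level. Of the 9, 6 had fitted values below and 3 above those of sufficient cells, with a median log2 fold of -0.35, while over all tested genes 49.1% were below and the median was 0.02. Zfp36 was the only regulator whose 4 deficient libraries all lay below all sufficient ones, which held for 2.10% of tested genes, and none lay wholly above, which held for 2.26%. The plot of all 10 genes by library shows how wide the scatter was for most of them.

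**Figure D1:**
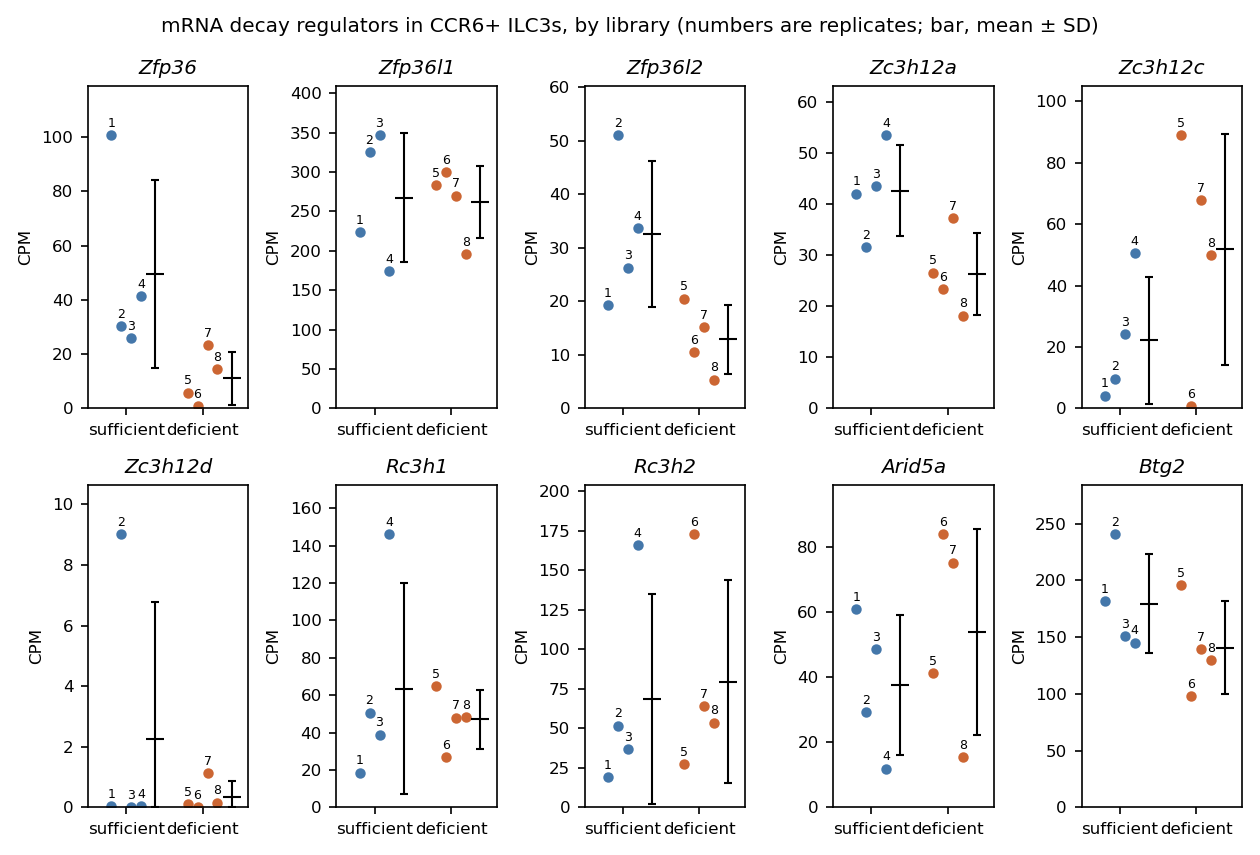
Expression of each regulator in CPM (vertical axes, linear from 0) in the 4 Zbtb46-sufficient (blue) and 4 Zbtb46-deficient (orange) libraries, with replicate numbers; black bars are mean ± SD, and lower bars stop at 0. The Zfp36 groups do not overlap, and Zfp36l2 and Zc3h12a overlap through 1 library of each group. In Btg2 only deficient replicate 5 reaches the sufficient range, and the other panels overlap widely.

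Zfp36, which encodes TTP (Entrez ID 22695, GRCm38.p6 chromosome 7, 28376784 to 28379228), was at 101, 30.4, 25.9 and 41.3 CPM in the sufficient libraries (replicates 1 to 4) and at 5.85, 0.949, 23.3 and 14.4 CPM in the deficient ones (5 to 8). The lowest sufficient library, replicate 3, was just above the highest deficient one, replicate 7, while replicates 1 and 6 lay at the extremes. The means were 49.6 ± 34.7 and 11.1 ± 9.83 CPM (SD, n = 4 each). The fitted log2 fold of deficient over sufficient was -2.16 with a standard error of 1.04 and a 95% confidence interval from -4.48 to 0.16, and edgeR gave an unadjusted p of 0.0653 and an adjusted p of 1.00. DESeq2 gave an unadjusted p of 0.0234 and an adjusted p of 0.295, with 7.46% of genes under 0.05 unadjusted. The log2 fold was -1.56 without replicate 1, -2.80 without replicate 7 and -1.16 without replicates 1 and 6, with edgeR's unadjusted p at 0.223, 0.0426 and 0.269. In bulk samples, fewer cells that express a gene and less RNA per cell cannot be told apart.

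The sufficient library with the most Zfp36, replicate 1, also had the highest stromal and endothelial sum, at 1194 CPM against 77.9 to 149 CPM in the other sufficient libraries. In the deficient group the library with the most Zfp36, replicate 7, again had the highest sum, at 511 CPM against 74.0 to 228 CPM. The order differed among the other libraries. Deficient replicate 5 had a sum of 228 CPM with 5.85 CPM of Zfp36, and replicate 8 a sum of 74.0 CPM with 14.4 CPM. Sufficient replicate 3 had a sum of 149 CPM but the lowest Zfp36 of its group, 25.9 CPM. Replicate 7 also had the highest macrophage and neutrophil sum, 789 CPM. Of the 10 stromal and endothelial markers, 8 exceeded 1 CPM in at least 1 library of each group. Pdgfra and Cdh5 stayed at or under 1 CPM in the sufficient group and Col1a2 and Cdh5 in the deficient one. The part of stromal or other cells in the Zfp36 values was not tested.

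Zfp36 is also an immediate early gene, one of the transcripts switched on within minutes of stimulation or tissue handling, and 16 such genes were followed beside it. Among the 12 tested, 8 were fitted lower and 4 higher (median log2 fold -0.29), and 0 passed edgeR's adjusted threshold. Fos, a subunit of the transcription factor AP-1, was at 536, 490, 416 and 500 CPM in sufficient and 314, 308, 411 and 273 CPM in deficient libraries. Its groups did not overlap, all deficient libraries being lower, which held for 2.10% of tested genes. The Fos log2 fold was -0.57 (standard error 0.208), with an unadjusted p of 0.0203 in edgeR. Egr1, a zinc finger factor of the same early response, had 74.9 ± 41.4 and 25.7 ± 9.41 CPM (SD, n = 4 each), with sufficient replicate 4 as low as the deficient libraries at 16.5 CPM. The AP-1 genes Jun and Junb had 40.5 ± 24.4 against 53.9 ± 13.6 and 514 ± 111 against 457 ± 230 CPM. The plot of Zfp36 beside Fos, Egr1 and the stromal sum shows replicate 7 as the deficient library with the most Zfp36, Fos and stromal signal. Egr1 was highest of that group in replicate 8, at 32.5 CPM against 31.4 CPM in replicate 7. Jun and Junb are not plotted.

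**Figure D2:**
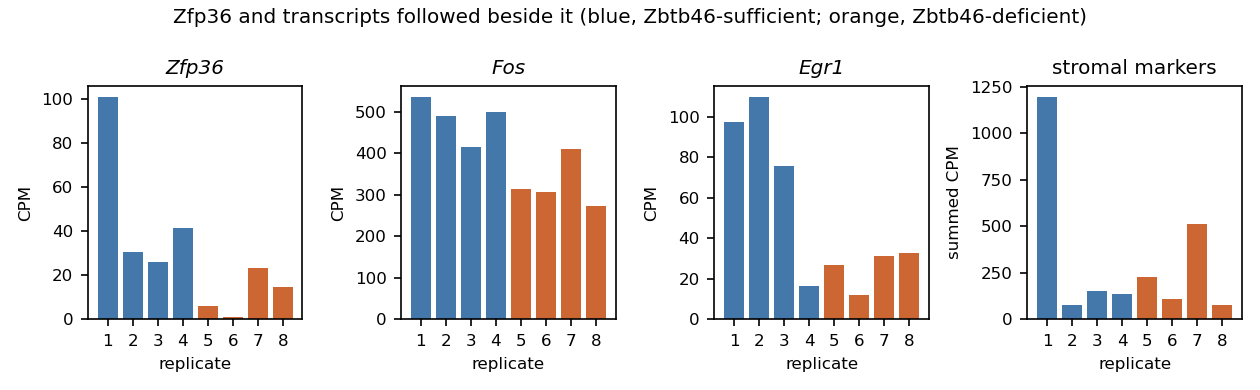
Zfp36, Fos and Egr1 in CPM and the summed CPM of 10 stromal and endothelial markers (vertical axes, linear from 0), 1 bar per replicate library, blue for Zbtb46-sufficient and orange for Zbtb46-deficient. Replicate 1 has the highest Zfp36, Fos and stromal values, and within the deficient group replicate 7 has the highest of the same 3. Egr1 is highest in replicate 2 and, within the deficient group, in replicate 8.

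Zfp36l1 (Entrez ID 12192, chromosome 12, 80107760 to 80113013), a family member that also restrains lymphocyte proliferation, was at 224, 325, 347 and 174 CPM in sufficient and 284, 300, 270 and 196 CPM in deficient libraries. The groups overlapped throughout. Its log2 fold was -0.03 with a 95% confidence interval from -0.66 to 0.60, which is a fold between 0.635 and 1.51, and edgeR's unadjusted p was 0.922. Its sign turned to 0.07 with no scaling factors. Zfp36l2 (Entrez ID 12193, chromosome 17, 84183924 to 84187947), the relative that with Zfp36l1 guards lymphocyte development, was at 19.3, 51.1, 26.3 and 33.7 CPM in sufficient and 20.5, 10.5, 15.2 and 5.35 CPM in deficient libraries. Only sufficient replicate 1 and deficient replicate 5 broke a full separation. At a log2 fold of -1.34 (standard error 0.900) it had an unadjusted p of 0.168 in edgeR and 0.0196 in DESeq2 and an adjusted p of 0.262 in DESeq2.

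Per transcript length, Zfp36l1 made up most of the TTP family in every library. Levels here are in RPKM (CPM per kilobase of 1 coding transcript per gene). The Zfp36l1 share was 64.3% to 87.4% in sufficient and 87.7% to 96.8% in deficient libraries. At the edges of these ranges, sufficient replicate 3 and deficient replicate 7 were nearly equal. Zfp36 made up 31.0%, 8.12%, 7.01% and 17.9% of the family in the 4 sufficient libraries and 2.04%, 0.329%, 8.10% and 7.15% in the 4 deficient ones, so its share in deficient replicate 7 and sufficient replicate 2 was nearly equal. The summed family level was 116 ± 24.0 RPKM in sufficient and 95.4 ± 15.5 RPKM in deficient cells (SD, n = 4 each), and these ranges overlapped. These shares and sums depend on the transcript lengths used. The transcript taken for Zfp36, 2790 bases, is longer than the gene's RefSeq span given above, so its RPKM may be understated. The Zfp36l1 shares may then be overstated, and whether the groups stay apart at a shorter Zfp36 length was not tested.

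**Figure D3:**
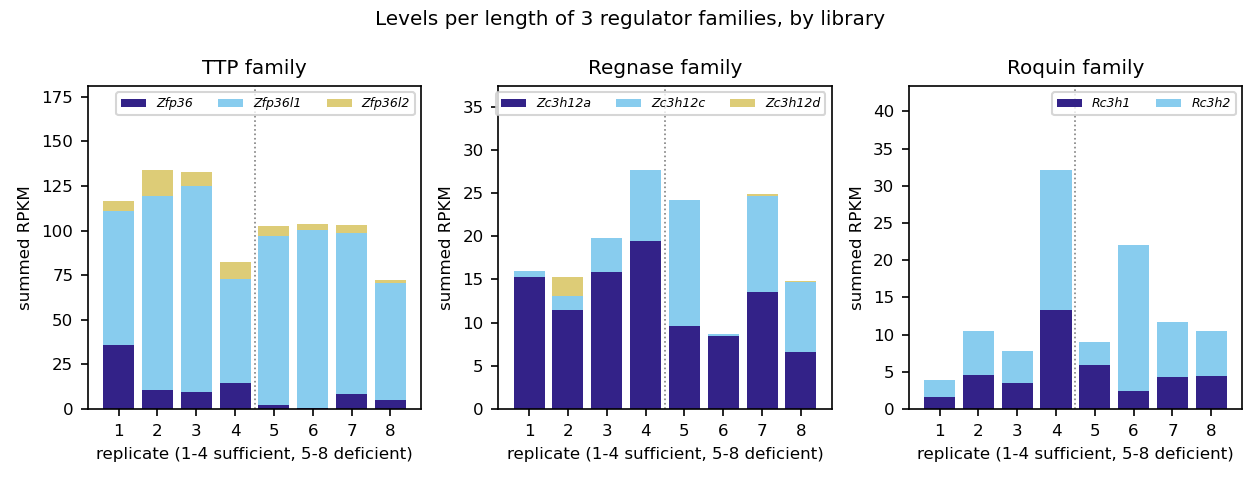
Stacked RPKM (vertical axes, linear from 0) of the TTP, Regnase and Roquin family genes in each replicate library, with a dotted line between Zbtb46-sufficient (1 to 4) and Zbtb46-deficient (5 to 8). Zfp36l1 fills 64.3% to 96.8% of the TTP bars, Zc3h12c takes more in replicates 5, 7 and 8 but not 6, and replicates 4 and 6 carry the most Roquin signal.

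The TTP family transcripts carry AU-rich sites of their own, and 1 window from each 3′ untranslated region is printed because TTP proteins are known to bind such sites in their own mRNAs as well as in cytokine mRNAs. The search was for the heptamer TATTTAT (with U for T in the RNA) on the sense strand, with overlapping matches counted, in 1 coding transcript per gene of the GENCODE M21 annotation of GRCm38. Zfp36 held 3 matches in 774 bases, Zfp36l1 held 3 in 1835 and Zfp36l2 held 3 in 1822. Of all 10 regulators 7 held at least 1. Outside the TTP family Rc3h2 held 3 in 5160, Zc3h12c 2 in 3421, Rc3h1 2 in 7181 and Btg2 1 in 2199 bases. Zc3h12a, Zc3h12d and Arid5a held 0. Of 8178 tested genes with such a region, 28.8% held at least 1, at 0.300 matches per kilobase over all. The 29-base windows below, 5′ to 3′ on the minus strand, lie at chr7:28376966-28376994, chr12:80108422-80108450 and chr17:84184914-84184942. Capitals mark the heptamer.
Zfp36: agtgggcccttTATTTATgacgactttat
Zfp36l1: ttatcaaaacgTATTTATtgccaaactat
Zfp36l2: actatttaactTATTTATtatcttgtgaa

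In the Regnase family, 1 gene varied less within groups than the median tested gene, and 1 was too low to test. Zc3h12a, encoding the nuclease Regnase-1 (Entrez ID 230738, chromosome 4, 125118414 to 125127881), was at 42.1, 31.6, 43.6 and 53.6 CPM in sufficient and 26.6, 23.4, 37.3 and 18.2 CPM in deficient libraries. Deficient replicate 7 exceeded sufficient replicate 2, and the other 3 deficient libraries lay below all sufficient ones. The means were 42.7 ± 8.99 and 26.4 ± 8.07 CPM (SD, n = 4 each), with coefficients of variation of 21.0% and 30.6% where the median tested gene had 71.3% and 68.5%. The fitted log2 fold, -0.70 (standard error 0.649), had an unadjusted p of 0.309 in edgeR. DESeq2 gave 0.0424 unadjusted and 0.416 adjusted. Zc3h12a held no TATTTAT in the 856 bases searched, and its known autoregulation is through stem-loops that were not searched here.

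Zc3h12c, encoding a less studied Regnase (Entrez ID 244871, chromosome 9, 52109569 to 52168730), was at 4.15, 9.72, 24.1 and 50.5 CPM in sufficient and 89.0, 0.797, 67.9 and 49.9 CPM in deficient libraries. Of the deficient libraries, 3 were near or above the highest sufficient one, and replicate 6 was the lowest of all 8. On the log2 scale the fold was 1.23 (standard error 1.19), with an unadjusted p of 0.325 in edgeR, and with 1 library left out it ran from 0.83 without replicate 5 to 2.03 without replicate 4. Zc3h12d (Entrez ID 237256, chromosome 10, 7832323 to 7870397), a Regnase known from T cells and macrophages, had 1, 218, 0 and 1 counts in sufficient and 4, 0, 36 and 5 counts in deficient libraries and did not pass the filter. Sufficient replicate 2 held most of its reads, at 9.02 CPM, in the library with the highest epithelial, T cell and ILC2 sums. Deficient replicate 7, next at 1.13 CPM, had the highest macrophage and neutrophil sum. The part of these cells in the Zc3h12d values was not tested. A count of 0 allows up to 0.108 CPM in replicate 3 and 0.114 CPM in replicate 6, taken as 3 counts, for counting error alone. Without the filter edgeR gave Zc3h12d an unadjusted p of 0.366. As shares of the family in RPKM, Zc3h12a took 70.2% to 95.7% in sufficient libraries. In deficient replicates 5, 7 and 8 it took 39.9%, 54.4% and 44.6%, and in replicate 6 it took 98.5%.

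The Roquin genes encode RING finger proteins that bind stem-loops in mRNAs such as Icos and Tnf and overlap in function. Rc3h1 (Entrez ID 381305, chromosome 1, 160906411 to 160974976) was at 18.5, 50.6, 39.0 and 146 CPM in sufficient and 65.0, 27.0, 48.1 and 48.2 CPM in deficient libraries. Rc3h2 (Entrez ID 319817, chromosome 2, 37368861 to 37424370) was at 19.3, 51.7, 37.0 and 166 CPM in sufficient and 27.2, 173, 64.1 and 53.7 CPM in deficient libraries. Both genes had their highest sufficient value in replicate 4 and overlapped fully between groups. The log2 folds were -0.43 (standard error 0.682) and 0.21 (standard error 0.762), with unadjusted p of 0.539 and 0.784 in edgeR. Single libraries set these directions. Without replicate 4 the folds were 0.38 for Rc3h1 and 1.14 for Rc3h2, and Rc3h2 was at -0.50 without replicate 6 and -0.81 without replicates 1 and 6. In RPKM, Rc3h1 made up 41.3% to 45.7% of the pair in the sufficient libraries and 11.1% to 65.6% in the deficient ones, where replicate 6 was lowest and replicate 5 highest. Rc3h2 spans the small nucleolar RNA gene Snord90, and the sources used here do not say whether the counting separated them.

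Arid5a and Btg2 overlapped between groups. Arid5a (Entrez ID 214855, chromosome 1, 36307733 to 36324037), an RNA-binding protein that stabilises Il6 mRNA, was at 60.9, 29.3, 48.6 and 11.9 CPM in sufficient and 41.3, 84.0, 75.2 and 15.5 CPM in deficient libraries. Replicates 6 and 7 exceeded every sufficient library, and replicate 8 was close to the lowest one. Its log2 fold of 0.52 (standard error 0.740) had an unadjusted p of 0.500 in edgeR. Btg2 (Entrez ID 12227, chromosome 1, 134074865 to 134079155) was at 182, 241, 151 and 145 CPM in sufficient and 196, 97.9, 140 and 130 CPM in deficient libraries. Among the deficient libraries 3 lay below all sufficient ones and replicate 5 lay above 3 of them. For Btg2 the log2 fold was -0.35 with a 95% confidence interval from -1.05 to 0.34, a fold between 0.484 and 1.27, and edgeR's unadjusted p was 0.287.

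**Figure D4:**
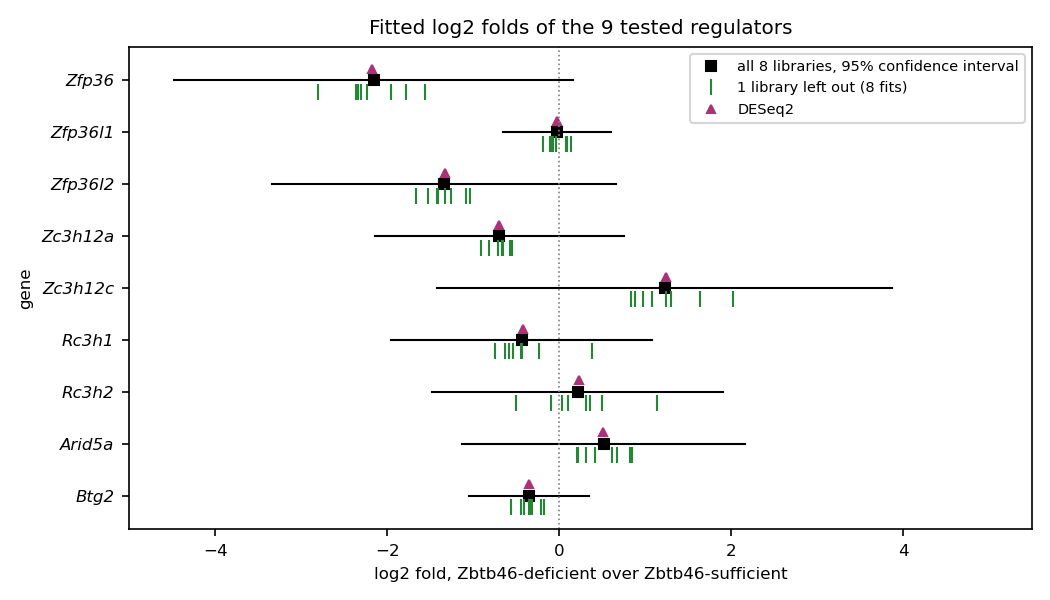
Fitted log2 fold of Zbtb46-deficient over Zbtb46-sufficient libraries (horizontal axis) for the 9 tested regulators (vertical axis): squares and lines give the edgeR fit with its 95% confidence interval, green ticks the 8 fits with 1 library left out, and triangles DESeq2. All 9 intervals include 0, and the ticks of Zfp36, Zfp36l2, Zc3h12a and Btg2 stay below 0 in all 8 such fits.

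In level per length, the order of the genes was led by the same pair in both groups. In sufficient cells Zfp36l1 was at 89.5 ± 27.5 RPKM and Btg2 at 65.5 ± 16.0 RPKM (SD, n = 4 each), and their ranges overlapped. A gap without overlap separated Btg2 from Zfp36, which followed at 17.8 ± 12.4 RPKM. After it came Zc3h12a at 15.5 ± 3.26, Arid5a at 12.6 ± 7.18, Zfp36l2 at 9.23 ± 3.86, Rc3h2 at 7.78 ± 7.54, Rc3h1 at 5.77 ± 5.15, Zc3h12c at 3.61 ± 3.37 and Zc3h12d at 0.556 ± 1.10 RPKM, and each of these overlapped its neighbour. In deficient cells Zfp36l1 and Btg2 were at 87.7 ± 15.4 and 51.4 ± 14.9 RPKM, again overlapping each other and apart from the rest. Arid5a then followed at 17.98 ± 10.5 RPKM and Zc3h12a at 9.58 ± 2.93 RPKM. Rc3h2 at 9.03 ± 7.30, Zc3h12c at 8.46 ± 6.13, Rc3h1 at 4.28 ± 1.41, Zfp36 at 3.98 ± 3.52 and Zfp36l2 at 3.65 ± 1.84 RPKM came next with overlapping neighbours. Zc3h12d was last at 0.0853 ± 0.128 RPKM, below every library of Zfp36l2. Zfp36 thus stood at rank 3 in one group and rank 8 in the other, among neighbours whose ranges overlapped. Its rank depends on the 2790-base transcript used, which is longer than the gene's RefSeq span, so its RPKM may be understated.

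The genes whose pattern over the 8 libraries was most like a regulator's were sought among abundant genes, by the root mean square difference of centred log2 CPM. Closest to Zfp36l1, the most abundant regulator, were the chaperone gene Hspe1 (0.181), the prefoldin gene Pfdn2 (0.207) and the SUMO protease gene Senp6 (0.212), where the median of 1823 genes was 0.602. Closest to Zfp36, the regulator with the smallest p, were the kinase gene Map3k2 (0.623), the homeobox gene Adnp (0.647) and Ccdc189 (0.666), where the median of 1824 genes was 1.68. All 3 were highest in replicate 1 and lowest in replicate 6, as Zfp36 was, with Map3k2 at 263 and 8.54 CPM in those libraries. They were picked for likeness to Zfp36 over these 8 libraries, so the shared extremes are a property of the choice. Replicates 1 and 6 were also the libraries that stood apart from the rest.

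Relatives outside the chosen 10 showed no gene past the threshold. Of 8 such genes (Zfp36l3, Zc3h12b, Arid5b and the BTG and TOB genes), 5 were tested, 3 lower and 2 higher, with a median log2 fold of -0.29. Tob2, an antiproliferative adaptor that recruits CCR4-NOT, had 485 ± 89.2 against 342 ± 108 CPM, and Btg1, the Btg2 relative linked to lymphocyte quiescence, 1629 ± 236 against 1333 ± 259 CPM (SD, n = 4 each). Their unadjusted p in edgeR was 0.0881 and 0.175.

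The decay machinery that these factors recruit was expressed in both groups and also held no gene past the threshold. Of 14 deadenylase genes, all tested, 8 were lower and 6 higher, with a median log2 fold of -0.30. Pan3, a subunit of the PAN2-PAN3 deadenylase, had 96.5 ± 27.0 against 43.2 ± 32.3 CPM, and Cnot7, a catalytic subunit of CCR4-NOT, 340 ± 50.7 against 224 ± 98.7 CPM (SD, n = 4 each). Of 18 decapping, 5′ to 3′ decay and exosome genes 17 were tested, with 6 lower, 11 higher and a median of 0.18. Pnrc1, a decapping cofactor, had 288 ± 46.5 against 187 ± 49.9 CPM with an unadjusted p of 0.0400 in edgeR. The exosome nuclease gene Dis3 was at 2.35, 10.2, 36.3 and 10.6 CPM in sufficient libraries and at 0.0285, 0, 0 and 2.72 CPM in deficient ones. Its fitted log2 fold of -4.42 had a standard error of 2.32, and it was -3.44 without replicate 3 and -10.0 without replicate 8.

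Other RNA-binding and surveillance genes were as mixed. Of 8 further AU-rich and related binding protein genes, 4 were lower and 4 higher (median -0.19), led by Tial1, a translational repressor, at 99.8 ± 42.9 against 61.7 ± 12.6 CPM and Pum2, a Pumilio protein, at 414 ± 111 against 312 ± 110 CPM (SD, n = 4 each). Of 7 nonsense-mediated decay genes, 4 were lower and 3 higher (median -0.09). Upf1, the helicase that Regnase-1 uses, was at 23.4 ± 10.1 against 8.81 ± 3.07 CPM, with an unadjusted p of 0.199 in edgeR.

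Signalling genes that set the activity of TTP and Regnase-1 were 7 lower and 5 higher among 12 tested, with a median log2 fold of -0.28 and none past the threshold. Ppp2ca, the catalytic subunit of protein phosphatase 2A, which can dephosphorylate TTP, was at 643, 1098, 868 and 980 CPM in sufficient and 491, 514, 427 and 643 CPM in deficient libraries. Sufficient replicate 1 and deficient replicate 8 were level and the other libraries did not overlap. On the log2 scale Ppp2ca differed by -0.79 (standard error 0.223), with an unadjusted p of 0.00531 and an adjusted p of 0.646 in edgeR. Tank, an adaptor in NF-kB control, had 735 ± 243 against 392 ± 200 CPM (SD, n = 4 each) and an unadjusted p of 0.0496. Mapkapk3, a kinase of the p38 pathway named after its values were seen, had 177 ± 50.5 against 260 ± 52.8 CPM. It was the 1 gene of this list whose groups did not overlap. All its deficient libraries were higher, which held for 2.26% of tested genes.

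Transcripts described as targets of these regulators had fitted values in both directions. The list was written from general knowledge and not from a deposited source, and binding was not measured in these cells. Of 25 followed, 19 were tested, 10 lower and 9 higher with a median log2 fold of -0.01, and 0 passed edgeR's adjusted threshold. For 3 of them the groups did not overlap, 1 of them lower and 2 higher. Over all tested genes 2.10% lay wholly lower and 2.26% wholly higher. Ptgs2, encoding the prostaglandin synthase COX-2 and a TTP target, was at 56.0, 54.9, 68.0 and 120 CPM in sufficient and 174, 332, 253 and 203 CPM in deficient libraries. Every deficient library exceeded every sufficient one. This was a log2 fold of 1.69 (standard error 0.363), with an unadjusted p of 8.99e-04 and an adjusted p of 0.515 in edgeR, while DESeq2 called it with an adjusted p of 0.00402.

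Il6, a target of Regnase-1 that Arid5a protects, had 1 count in sufficient replicate 3 and 0 in the other 3 sufficient libraries, against 40.2, 101, 55.9 and 18.8 CPM in the deficient ones. Its adjusted p was 0.174 in edgeR and 6.05e-16 in DESeq2. Deficient replicate 6 had the most Il6 and Ptgs2, and replicate 8 the least Il6 of its group. In deficient replicates 5 to 8, macrophage and neutrophil genes summed to 374, 12.2, 789 and 4.47 CPM, and stromal and endothelial genes to 228, 109.6, 511 and 74.0 CPM. Mast cell genes summed to 0, 66.2, 0 and 0 CPM, highest in the library with the most Il6 and Ptgs2, with 5 of the 6 genes at or under 1 CPM in every library and Cpa3 over it. These cell types can also express Il6 and Ptgs2, and their part in these values was not tested. Nfkbiz, encoding the NF-kB cofactor I-kB-zeta and a target of Regnase-1 and Roquin, went the other way at 687, 816, 566 and 897 against 388, 503, 442 and 473 CPM. The log2 difference of Nfkbiz was -0.72 (standard error 0.205), at an adjusted p of 0.664 in edgeR and 0.0626 in DESeq2.

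The ILC3 cytokines with AU-rich sites overlapped between groups. Il22 had 21238 ± 4647 against 15419 ± 2502 CPM, Il17f 1978 ± 766 against 2796 ± 983, Il17a 10.7 ± 11.3 against 27.7 ± 23.5, Csf2 222 ± 80.5 against 258 ± 116 and Tnf 14.6 ± 14.9 against 6.08 ± 4.98 CPM (SD, n = 4 each). The Roquin target Icos had 1288 ± 364 against 1251 ± 589 CPM. Unadjusted p values of these 6 in edgeR ran from 0.0543 for Il22 to 0.909 for Icos. The log2 fold of Il17a, 1.38, was 2.31 without replicate 2, 0.69 without replicate 5 and 3.16 in limma-voom, and that of Tnf, -1.27, was -0.64 without replicate 2. Signs turned for Csf2, to -0.12 without replicate 8, for Icos, to 0.21 without replicate 7, and for Tnf, to 0.56 in limma-voom.

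**Figure D5:**
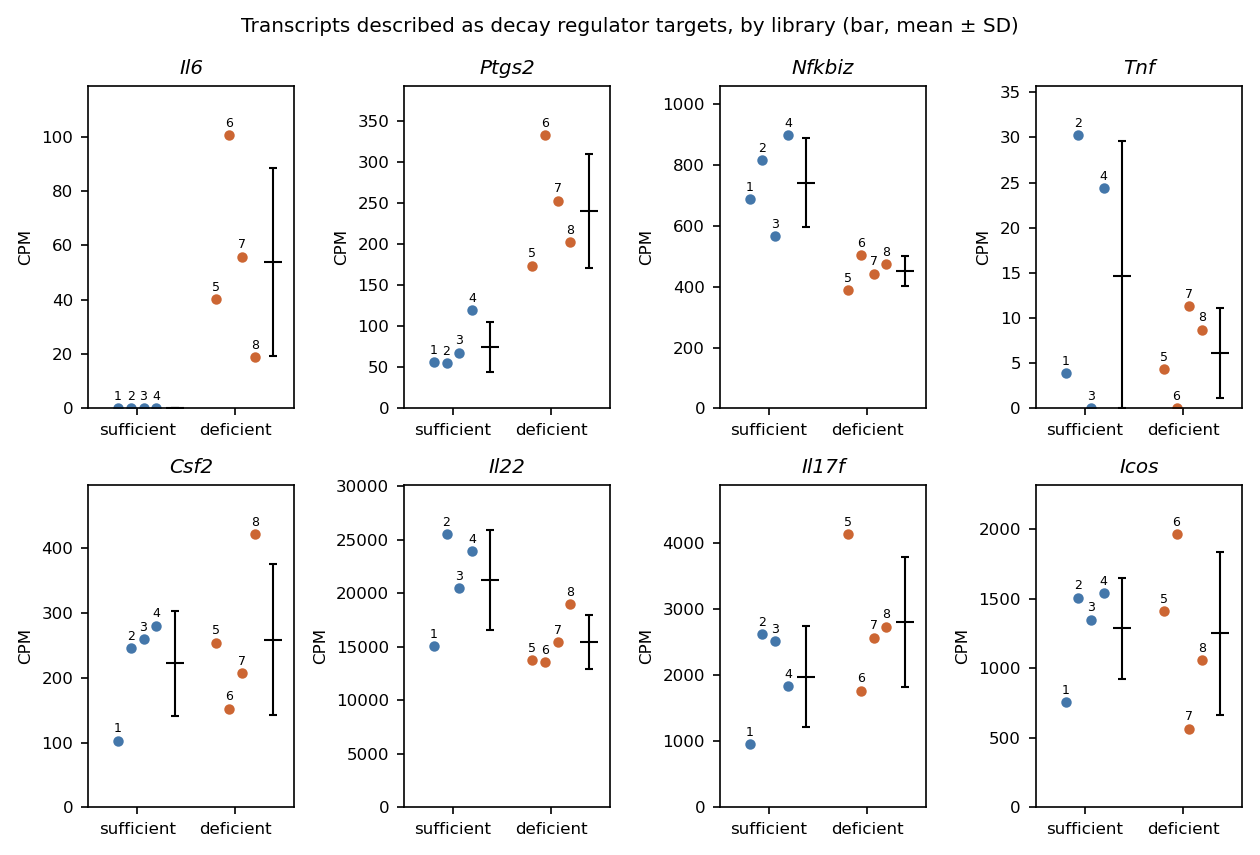
CPM (vertical axes, linear from 0) of 8 transcripts described as targets of decay regulators in the 4 Zbtb46-sufficient (blue) and 4 Zbtb46-deficient (orange) libraries, with replicate numbers and mean ± SD in black (lower bars stop at 0). Il6 and Ptgs2 are higher and Nfkbiz is lower in all 4 deficient libraries, and the other 5 overlap.

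The windows with the most heptamers are printed for 6 of the targets named above, to show how densely the heptamer can lie in a cytokine mRNA. The 25 target transcripts held 71 TATTTAT matches, 3.07 per kilobase of 3′ untranslated region against 0.300 over all tested genes, and 19 of 25 held at least 1. They were listed as targets, so this density is a property of the choice. Csf2 held 9 matches in 317 bases, Tnf 8 in 764, Ptgs2 6 in 2445, Il22 4 in 521, Il17a 3 in 637, Il17f 2 in 621 and Il6 1 in 427, while Nfkbiz held 0 in 1355. Of the 3 with the most matches among these, Csf2 and Ptgs2 had fitted values above 0 and Tnf below. The windows lie at chr5:30019728-30019756 (plus strand) for Il6, chr1:150105786-150105814 (plus) for Ptgs2, chr17:35199678-35199706 (minus) for Tnf, chr11:54247325-54247353 (minus) for Csf2, chr10:118209873-118209901 (plus) for Il22 and chr1:20777243-20777271 (minus) for Il17f in GRCm38. Capitals mark the heptamers.
Il6: tttatgattgaTATTTATtatttttatga
Ptgs2: tctactgaccaTATTTATTTATTTATgtg
Tnf: TATTTATTATTTATTTATTATTTATTTAT
Csf2: aaaTATTTATTTATTTATTTATTTATttt
Il22: atatgtaagttTATTTATtataagtatac
Il17f: aaactattataTATTTATgttggtagggg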

How the data were processed

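The authors deposited raw counts, whole numbers keyed by Entrez ID. Per the submitters' processing notes, CASAVA 1.8.2, STAR 2.3.0 and build mm10 were used. Libraries were made with a low-input SMARTer kit, per the labels' protocols. The counting tool, its annotation and its use of strand were not stated in the labels. Of 27179 rows, 25275 found a symbol in the RefSeq table (assembly GRCm38.p6).

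Counts were tested with edgeR 4.0.16 (R 4.3.3): TMM factors, filterByExpr, quasi-likelihood F test and Benjamini-Hochberg adjustment over all 8878 tested genes, with a threshold of 0.05. Standard errors and 95% intervals come from the F statistic. CPM uses TMM-scaled totals of the filtered genes. RPKM divides CPM by the length of 1 coding transcript per gene in GENCODE M21 (longest coding sequence, then longest 3′ region). The edgeR step was run on simulated counts to check that fitted log2 folds followed the simulated ones. The share of changed genes it recovered is not given here. Alternatives were RLE factors, no factors, DESeq2 1.42.0, limma-voom (limma 3.58.1) with sample quality weights, no filter, at least 5 CPM in at least 4 libraries, and each library left out. Leaving out replicates 1 and 6 together was chosen after seeing the data. The regulators and gene lists were chosen with earlier results of these data known.

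All 10 regulators were named. Other pathway lists gave the 2 tested genes with the smallest p (1 of these is not reported here), and 13 further genes were set to be named: Il6, Tnf, Csf2, Il17a, Il17f, Il22, Nfkbiz, Icos, Fos, Egr1, Jun, Junb and Zbtb46. In the ILC3 identity list and the marker lists the rule picked Tcf7, Thy1, Lgals4, Car1, Dcn, Pecam1, S100a8, S100a9, Zbtb46, Irf8, Cd4, Trac, Ncr1, Ccl5, Il5, Klrg1, Igkc and Jchain. Apart from Zbtb46 their unadjusted p in edgeR ran from 0.0221 to 0.899 and none passed after adjustment. Most alike genes had a mean of at least 100 CPM, and 1 was added to CPM before logs.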

Additional observations from a re-analysis of the deposited data

Results flagged for a closer look

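A single library was taken as standing apart when its distance from its closest neighbour, divided by the spread from lowest to highest in its group, passed Dixon's 95% critical value. Of 72 groups of 4 values (36 genes in 2 groups) 5 stood out, where chance gives about 3.6. Groups whose highest value was under 1 CPM, such as Il6 in sufficient libraries, count among the 72 but were not flagged. Zc3h12d was at 9.02 CPM in sufficient replicate 2 and at 1.13 CPM in deficient replicate 7. The lone low value was Pan3 at 56.1 CPM in sufficient replicate 2. Dis3 was at 2.72 CPM in deficient replicate 8, and Junb was at 801 CPM in deficient replicate 7.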

How the results depend on the processing

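None of the 9 tested regulators passed the adjusted threshold under any of the 15 alternatives. Zfp36, Zfp36l2, Zc3h12a and Btg2 kept a negative and Zc3h12c and Arid5a a positive log2 fold in all of them. DESeq2 called 240 genes higher and 134 lower in deficient cells, and edgeR without a filter called 1 and 1. With 1 library left out edgeR called 0 higher and 0 to 2 lower, the 2 without replicate 6. Signs turned with no scaling factors for Zfp36l1 (0.0682) and Icos (0.0417), with limma-voom for Rc3h2 (-0.0691) and Tnf (0.56), and without replicates 1 and 6 for Rc3h2 (-0.81) and Junb (0.10). With 1 library left out the log2 folds ran from -0.19 to 0.14 for Zfp36l1, -0.74 to 0.38 for Rc3h1, -0.50 to 1.14 for Rc3h2, -0.12 to 0.41 for Csf2 and -0.34 to 0.21 for Icos. The cause was not tested. Over the named genes, 502 of the recomputed folds stayed on the same side in direction and call, 18 turned and 4 newly passed: Il6, Ptgs2 and Zbtb46 with DESeq2, and Il6 without a filter. No paired analysis was possible because no replicate number occurs in both groups. Amplified low-input libraries can hold more reads than starting molecules, and the limits from counts of 0 cover counting error alone.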

Other observations

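Tested genes were also grouped by the number of TATTTAT heptamers in the 3′ untranslated region. The 5820 genes with 0 had a median log2 fold of 0.03 (deficient over sufficient), the 1524 with 1 had 0.03, the 532 with 2 had -0.05 and the 302 with 3 or more had -0.00488. The shares with a fitted value below 0 were 48.3%, 48.4%, 53.2% and 50.3%. Median lengths of the region were 695.5, 1721, 2378 and 3170.5 bases, so the classes also differ in length. These values are a description, and no test was made across genes.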
